A study of Arabidopsis thaliana with 12 samples.

Results

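TGA1 and TGA4, the transcription factor genes mutated in the tga1/tga4 double mutant, were each followed through 1 probe set. TGA1 is AT5G65210 and TGA4 is AT5G10030, and their probe sets, TGA1.247199_at and TGA4.250463_at (the symbol before the point and the identifier after it), are 2 of the 22746 tested. They were selected by probe set identifier and not by a cut on their values, though earlier results of these data were known. The gene table supplied with the data has an entry for 0 of the 2, so the assignment of each probe set to its gene rests on the identifier, while the symbols and loci match those of the TAIR10.1 annotation.

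Arabidopsis thaliana roots were profiled on 12 single-channel Affymetrix arrays, 3 per group. The groups were tga1/tga4 double-mutant roots given 5 mM KNO3, wild-type (Col-0) roots given 5 mM KNO3, tga1/tga4 roots given 5 mM KCl and wild-type roots given 5 mM KCl, each for 2 h. All seedlings were 15 days old at treatment, after 14 days in hydroponics, with sucrose at 3 mM and with nitrogen given as 0.5 mM ammonium succinate, at 22 °C with 16 h of light and 8 h of dark. The labels name both mutated genes but no alleles, and where the probes lie relative to each mutation was not analysed here. The replicates are described as independent and biological without a statement of what separated them, so the p-values cover variation among these 3 samples per group, some of which may be technical.

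TGA factors are basic leucine zipper (bZIP) transcription factors named for the TGACG core of the DNA element they bind. TGA1 and TGA4 are close paralogs. They are known as partners of the NPR1 family of co-regulators in defence against pathogens, and their DNA binding through NPR1 is sensitive to the redox state of conserved cysteines. In roots, they are known to act in the response to nitrate, in which plants adjust transport, assimilation and root growth within hours of a nitrate supply. The design addresses how roots respond to nitrate and which part of the response needs TGA1 and TGA4, and the levels of both transcripts show whether the genes themselves respond and what the mutant retains.

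Both transcripts rose strongly with nitrate in wild-type roots and stood at a low level in the double mutant under both salts. In wild type, TGA1 was 6.77 times and TGA4 6.19 times as high with KNO3 as with KCl. In the mutant, the nitrate response of neither probe set passed the test. By estimate the genotype difference was wider under KNO3 than under KCl for both probe sets, and the test of this passed for TGA4 and, for TGA1, when samples were paired between genotypes. All values below are log2 expression values, and a level of one probe set is not compared with a level of the other, since probes differ in affinity.

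The TGA1 probe set stood at 1.64, 1.43 and 1.12 in mutant KNO3 samples 1, 2 and 3, against 7.27, 7.61 and 7.26 in wild-type KNO3 samples 1, 2 and 3. Under KCl it stood at 1.48, 1.03 and 0.79 in the mutant, against 5.08, 4.61 and 4.17 in wild type. The 3 wild-type KNO3 samples were the highest of the 12, the 3 wild-type KCl samples came next without overlap, and the 6 mutant samples lay lowest, with the KNO3 and KCl values of the mutant interleaved. The group means were 1.40 ± 0.26 in mutant KNO3, 7.38 ± 0.20 in wild-type KNO3, 1.1 ± 0.35 in mutant KCl and 4.62 ± 0.46 in wild-type KCl (log2, SD, n = 3 each). The wild-type KCl group was the widest, with 0.92 between its highest and lowest samples.

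**Figure D1:**
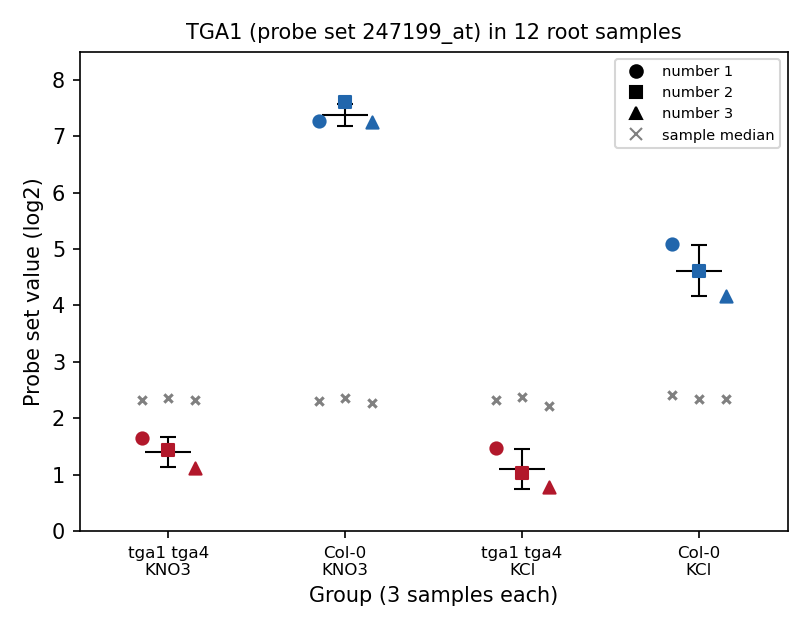
Log2 values (y axis) of the TGA1 probe set in each of the 12 samples, by group on the x axis; coloured symbols are samples (red, tga1 tga4; blue, Col-0; shape, sample number), horizontal bars with whiskers are group means ± SD (n = 3), and grey crosses are the median of all probe sets in the same sample. The wild-type KNO3 samples lie highest, at 7.26 to 7.61, and the 6 mutant samples lie below their sample medians.

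The TGA4 probe set stood at 0.76, 0.79 and 1.05 in mutant KNO3 samples 1, 2 and 3, against 5.11, 5.29 and 5.50 in wild-type KNO3 samples. Under KCl it stood at 0.43, 0.84 and 0.59 in the mutant, against 2.93, 2.45 and 2.63 in wild type. The order of the groups was the same as for TGA1. The wild-type groups were separated from each other and from the mutant, and the mutant groups overlapped. The group means were 0.87 ± 0.16 in mutant KNO3, 5.30 ± 0.20 in wild-type KNO3, 0.62 ± 0.21 in mutant KCl and 2.67 ± 0.24 in wild-type KCl (log2, SD, n = 3 each).

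**Figure D2:**
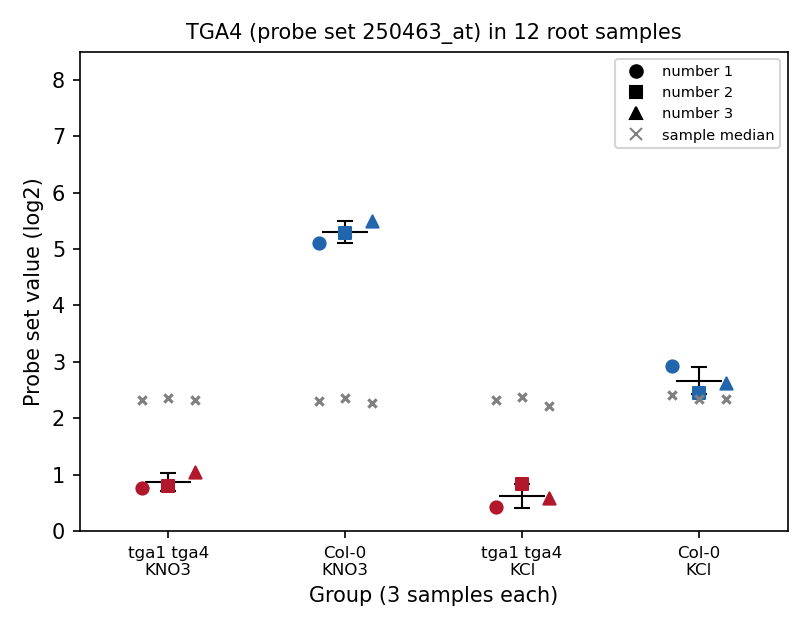
Log2 values (y axis) of the TGA4 probe set, by group on the x axis, with samples, means ± SD (n = 3) and sample medians drawn as for TGA1. The wild-type KNO3 samples lie at 5.11 to 5.50, the wild-type KCl samples, at 2.45 to 2.93, lie close above the sample medians, and the 6 mutant samples lie below them.

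The levels were read against the rest of each array, because the table holds no detection calls. The median of all probe sets lay between 2.21 and 2.41 in the 12 samples. The 3 probe sets for the bacterial trp control had values of 0.18 to 0.72. All 12 mutant values of both genes lay below the median of their sample, and TGA4 in wild-type KCl roots lay only 0.10 to 0.51 above it. TGA1 in wild type lay above the median by 1.83 to 2.67 under KCl and by 4.96 to 5.25 under KNO3. All TGA1 mutant values lay above the highest trp value of their sample. So did the TGA4 mutant values, except in KCl replicates 1 and 3 (0.43 and 0.59, against trp values of 0.57 and 0.72). Since probes differ in affinity, neither the sample median nor trp gives the background of these probe sets. The mutant values are thus not shown to exceed background, and differences measured against them are uncertain in size.

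In wild-type roots, nitrate raised TGA1 by 2.76 ± 0.24 on the log2 scale (estimate ± SE, n = 3 per group), a 6.77-fold rise with a 95% confidence interval of 4.70 to 9.75 (limma adjusted p = 2.62e-05). The lowest KNO3 sample exceeded the highest KCl sample by 2.17. TGA4 rose by 2.63 ± 0.16, a 6.19-fold rise with an interval of 4.84 to 7.91 (limma adjusted p = 1.35e-06), and the gap between its groups was 2.18. Of all probe sets tested, 5.51% were called for the wild-type nitrate response, 3.32% higher and 2.19% lower. By the size of the rise, TGA1 was 82nd and TGA4 91st of the 22746. The 2 rises differed by less than the width of either confidence interval, and the difference between the genes was not tested. As RNA came from whole roots, more cells expressing a gene and more RNA per cell cannot be told apart.

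In the double mutant, the same comparison gave 0.30 ± 0.24 for TGA1, with a 95% confidence interval of -0.23 to 0.83 (limma adjusted p = 0.660). For TGA4 it gave 0.25 ± 0.16, with an interval of -0.11 to 0.60 (limma adjusted p = 0.556). Neither passed, while 5.12% of all probe sets were called for the mutant nitrate response, 3.17% higher and 1.95% lower. In both cases the KNO3 and KCl samples overlapped. The intervals leave room for a rise of up to 1.77-fold for TGA1 and 1.52-fold for TGA4, on a signal that is not shown to exceed background.

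The interaction is the difference between the genotypes in their nitrate response, taken as mutant minus wild type. It was -2.46 ± 0.34 for TGA1 and -2.38 ± 0.23 for TGA4 (log2, SE). As the mutant signal was low under both salts, each value is near the wild-type rise with its sign changed. The interaction passed for TGA4 (limma adjusted p = 0.00731) and missed the threshold for TGA1 (limma adjusted p = 0.145, unadjusted p = 1.27e-05). TGA4 was the only probe set called for the interaction, which makes 0.0044% of those tested, and by p-value TGA1 came next. Samples of both genotypes with the same number within a salt deviated from their group means together. With each salt and number combination as a block, both probe sets passed (limma adjusted p = 0.00191 for TGA1 and 0.00515 for TGA4), and no other probe set did. The TGA4 call narrowly ended without wild-type KCl replicate 3 or mutant KNO3 replicate 1 (adjusted p = 0.0510 and 0.0506), and TGA1 passed without wild-type KCl replicate 1 (adjusted p = 0.0426).

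Under KNO3, the mutant minus wild-type difference of TGA1 was -5.98 ± 0.24 (log2, SE), which made it 63.1 times lower in the mutant, with a 95% confidence interval of 43.8 to 90.9 (limma adjusted p = 2.27e-07). TGA4 had a difference of -4.43 ± 0.16 and was 21.6 times lower, with an interval of 16.9 to 27.6 (limma adjusted p = 1.54e-07). Taken between samples of the same number, the mutant minus wild-type difference was -5.63, -6.18 and -6.13 for TGA1 and -4.35, -4.49 and -4.45 for TGA4. The differences of TGA4 lay closer together than those of TGA1. Of all probe sets, 3, or 0.0132%, were called under KNO3, and all were lower in the mutant. As measured, TGA1 and TGA4 had the largest and the second-largest decrease of the 22746, with mutant values that are not shown to exceed background.

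Under KCl, the difference of TGA1 was -3.52 ± 0.24 (log2, SE), which made it 11.5 times lower in the mutant, with a 95% confidence interval of 7.96 to 16.5 (limma adjusted p = 0.000178). TGA4 had a difference of -2.05 ± 0.16 and was 4.14 times lower, with an interval of 3.23 to 5.29 (limma adjusted p = 0.000445). The differences between samples of the same number were -3.60, -3.58 and -3.38 for TGA1 and -2.50, -1.61 and -2.04 for TGA4. TGA4 varied more between these pairs under KCl than under KNO3, and TGA1 varied less. Here 4 probe sets, or 0.0176%, were called, all lower in the mutant. This count was 18 with the salt and replicate block, which follows the pairing of the samples, and 2 to 18 when 1 sample was left out (2 without mutant KCl replicate 3 or wild-type KCl replicate 2, and 18 without mutant KCl replicate 1). TGA1 and TGA4 were called in each of these fits.

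**Figure D3:**
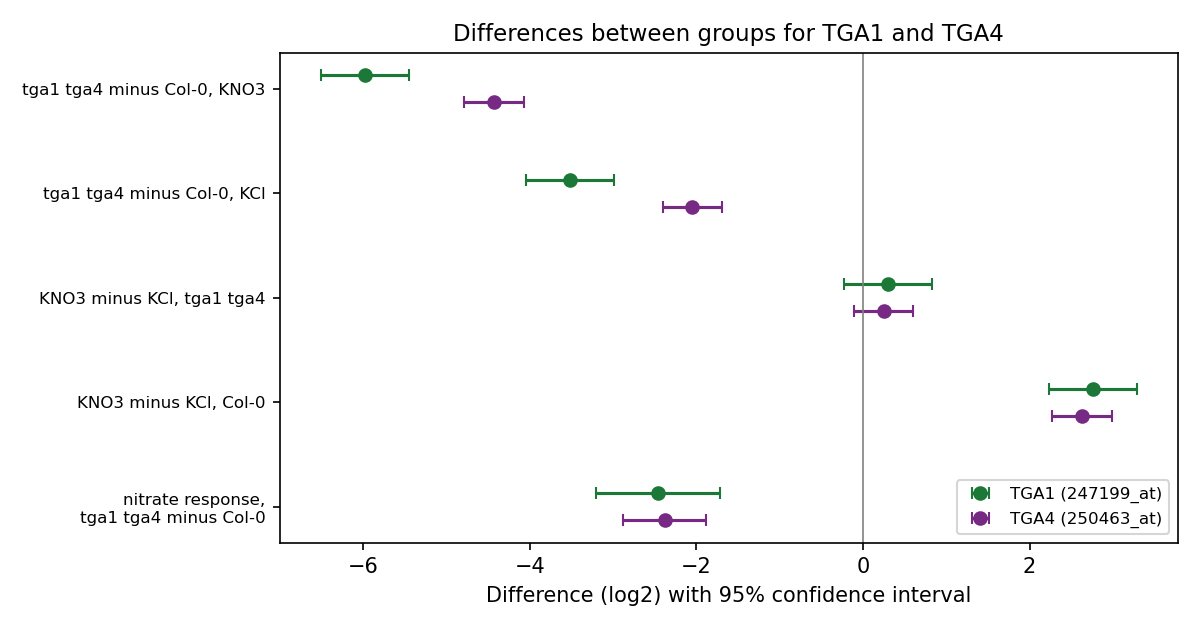
Differences between groups on the log2 scale (x axis) for TGA1 (green) and TGA4 (purple), with 95% confidence intervals from the linear model of all 12 samples; the rows give the genotype difference under each salt, the nitrate response of each genotype and the difference between these responses. Both intervals for the mutant nitrate response include 0, while those for the wild-type response run from 2.23 to 3.29 for TGA1 and from 2.27 to 2.98 for TGA4.

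Since every mutant value was under its sample's median, the genotype difference was also taken with each mutant value below its sample's median raised to that median. By estimate, TGA1 was then 33.1-fold lower in the mutant under KNO3 and 4.97-fold lower under KCl. TGA4 was 7.82-fold lower under KNO3 and 1.29-fold lower under KCl. These are point estimates without an interval, and the median is not the background of these probe sets. With this floor, which was chosen after seeing the data, the TGA4 difference under KCl no longer passed (limma adjusted p = 0.418), and the other 3 did. The size of the TGA4 difference under KCl thus rests on values below the middle of the array.

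Averaged over both salts, the mutant minus wild-type difference was -4.75 ± 0.17 for TGA1 and -3.24 ± 0.11 for TGA4 (log2, SE; limma adjusted p = 6e-08 for each). In a two-sided exact permutation test that exchanged genotype within each salt, p was 0.005 for each probe set, the smallest value that the 400 arrangements can give. With genotype exchanged only within the 6 pairs of one salt and number, the two-sided exact permutation p was 0.0312 for each, the smallest that 64 arrangements can give. A single comparison of 3 with 3 samples cannot go below an exact p of 0.1. For the average, 5 probe sets or 0.022% were called, all lower in the mutant. They were the probe sets of TGA1, TGA4 and AT5G35940 and a pair with no entry in the gene table.

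RNA quality measures differed slightly between genotypes. The actin control exceeded its 5′ probe set at its 3′ probe set by 1.69 to 1.8 in mutant KNO3 samples and 1.81 to 1.91 in wild-type KNO3 samples. Under KCl this 3′ excess was 1.54 to 1.8 in the mutant and 1.89 to 2.46 in wild type. The genotypes did not overlap under either salt, while the GAPDH control overlapped, at -0.31 to 0.08 in mutant and -0.08 to 0.24 in wild-type KNO3 samples and at -0.21 to 0.14 in mutant and 0.00 to 0.28 in wild-type KCl samples. The part of this in the TGA1 and TGA4 differences was not tested.

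**Figure D4:**
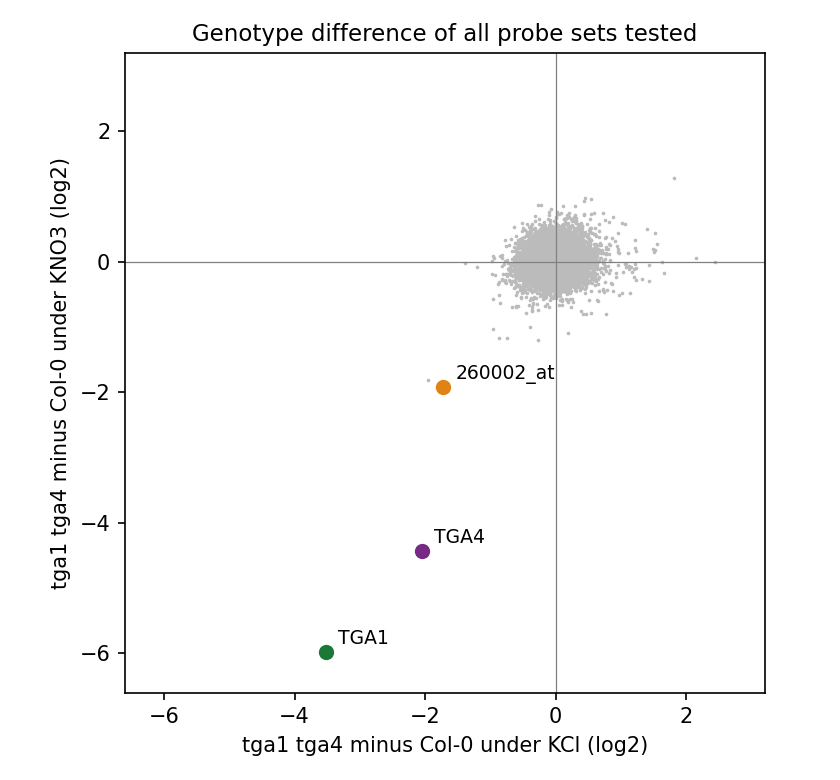
Mutant minus wild-type difference of all 22746 probe sets under KCl (x axis, log2) and under KNO3 (y axis, log2), from samples that the axes do not share; each grey point is a probe set. TGA1 lies at -3.52 and -5.98 and TGA4 at -2.05 and -4.43, apart from the mass of points around 0. A probe set with no gene entry (orange), at -1.72 and -1.92, is the only other one called under both salts. Its KCl call ended without mutant KCl replicate 3 or wild-type KCl replicate 2.

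The third probe set that passed under both salts has no entry in the gene table. It had a difference of -1.92 under KNO3 (limma adjusted p = 0.0025) and -1.72 under KCl (adjusted p = 0.00766). This KCl call ended without mutant KCl replicate 3 or wild-type KCl replicate 2 and in a fit of the KCl samples alone. The wild-type nitrate response of this probe set was 0.56 and did not pass (limma adjusted p = 0.126). Of the 3 probe sets called lower in the mutant under both salts, 2 were also called higher with nitrate in wild type, and these were TGA1 and TGA4. The share called higher in wild type over all probe sets was 3.32%. The same wild-type samples enter the genotype differences and the nitrate response, so this overlap is a description only.

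Across the 12 samples, the pattern of TGA1 was most like that of TGA4, and the reverse also held. Their Pearson correlation was 0.98, the highest of each with any other probe set. It is a description only, since the points form groups, share their arrays with each other and span the genotype difference itself. Among 6013 brighter probe sets that name 1 gene, the nearest to both was AT5G35940, with a correlation of 0.90 with TGA1 and 0.92 with TGA4. This gene had means of 3.30 in mutant and 4.33 in wild-type KNO3 roots, and 2.75 in mutant and 3.71 in wild-type KCl roots. Its genotype difference averaged over salts was -0.99 (limma adjusted p = 0.0189), a call that ended without any 1 of 9 of the 12 samples, with adjusted p from 0.0562 to 0.106. The next nearest to TGA1 were AT5G43150, AT5G15950, AT1G06560 and AT5G26270, at 0.79 to 0.76, and to TGA4 AT5G15950, AT1G73240, AT5G64550 and AT5G43150, at 0.80 to 0.77. The most opposed were AT2G45670, AT4G33080 and AT3G22970, at -0.81 to -0.72 with TGA1 and -0.82 to -0.76 with TGA4. The genotype difference of these genes did not pass under either salt.

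Within wild type alone, where the 6 samples fall into a KNO3 and a KCl cluster, many nitrate-responsive genes were as like TGA1 and TGA4 as they were like each other. TGA4 was then only 89th nearest to TGA1, and TGA1 167th nearest to TGA4, at the same correlation of 0.98. The nearest to TGA1 were AT3G50900, AT5G40470, AT5G26010, AT2G28200 and AT5G42830, at 1.00 to 0.99. The nearest to TGA4 were AT5G39590, AT4G32950, AT5G42840, AT1G71980 and AT5G54130, all at 1.00. A wild-type nitrate rise in these 10 genes follows from how they were chosen, and their rises lay between 0.49 for AT2G28200 and 6.03 for AT4G32950. In the mutant, 9 of the 10 rose, where 3.17% of all probe sets were called higher, and AT2G28200, with a change of -0.13, did not pass. The choice did not use the mutant samples. As it picked genes with a wild-type nitrate pattern, and same-number samples of both genotypes shared deviations, this count is a description only.

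Other bZIP genes were examined beside them. Of the 10 TGA family genes listed, 0 have a single-gene entry in the gene table, so the other members are not analysed here. Of 29 other bZIP genes listed, 9 were measured. In the mutant, HYH, a relative of the light-response factor HY5, rose by 2.23 ± 0.14, and in wild type by 1.99 ± 0.14 (log2, SE), and bZIP44 fell by 0.70 ± 0.15 in the mutant and by 0.93 ± 0.15 in wild type. The remaining 7 did not pass in either genotype. The 1 higher and 1 lower of 9 stand against 3.17% higher and 1.95% lower of all probe sets in the mutant and 3.32% and 2.19% in wild type. The median nitrate response of the 9 was 0.18 in the mutant and 0.26 in wild type, against -0.01 over all probe sets in each genotype. For the genotype differences and the interaction, 0 of the 9 passed (limma; 1 at an unadjusted p under 0.05 under KCl and 0 otherwise), where at most 0.022% of all probe sets did, so a count of 0 does not set the list apart. The bZIP44 call in the mutant ended without any 1 of 5 of the 6 mutant samples (limma adjusted p = 0.0501 to 0.0718).

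Of 24 nitrate regulators listed, 4 were measured, and the 3 HHO genes among them, which encode GARP-type repressors known to respond to nitrate, rose in both genotypes. The share of all probe sets called higher was 3.17% in the mutant and 3.32% in wild type. HHO3 (AT1G25550) rose by 3.84 ± 0.25 in the mutant and 3.81 ± 0.25 in wild type, and HHO2 (AT1G68670) by 3.84 ± 0.26 in the mutant and 4.0 ± 0.26 in wild type. HHO1 (AT3G25790) rose by 3.74 ± 0.84 in the mutant and 3.18 ± 0.84 in wild type, with calls nearer the threshold (limma adjusted p = 0.0224 in the mutant and 0.0487 in wild type). The mutant call ended without any 1 of 5 of the 12 samples (adjusted p up to 0.0759) and the wild-type call without any 1 of 9 (up to 0.156). Of 11 other alternatives, 2 ended the mutant call and 5 the wild-type call, so HHO1 is uncertain. NRG2 (AT3G60320), a regulator of nitrate signalling, changed by 0.17 in the mutant and -0.09 in wild type and did not pass. For the genotype differences and the interaction, 0 of the 4 passed (limma; 0 at an unadjusted p under 0.05). At most 0.022% of all probe sets did, so a count of 0 does not set the list apart. The interaction of HHO3 was 0.04 and that of HHO2 -0.16, where those of TGA1 and TGA4 were -2.46 and -2.38.

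**Figure D5:**
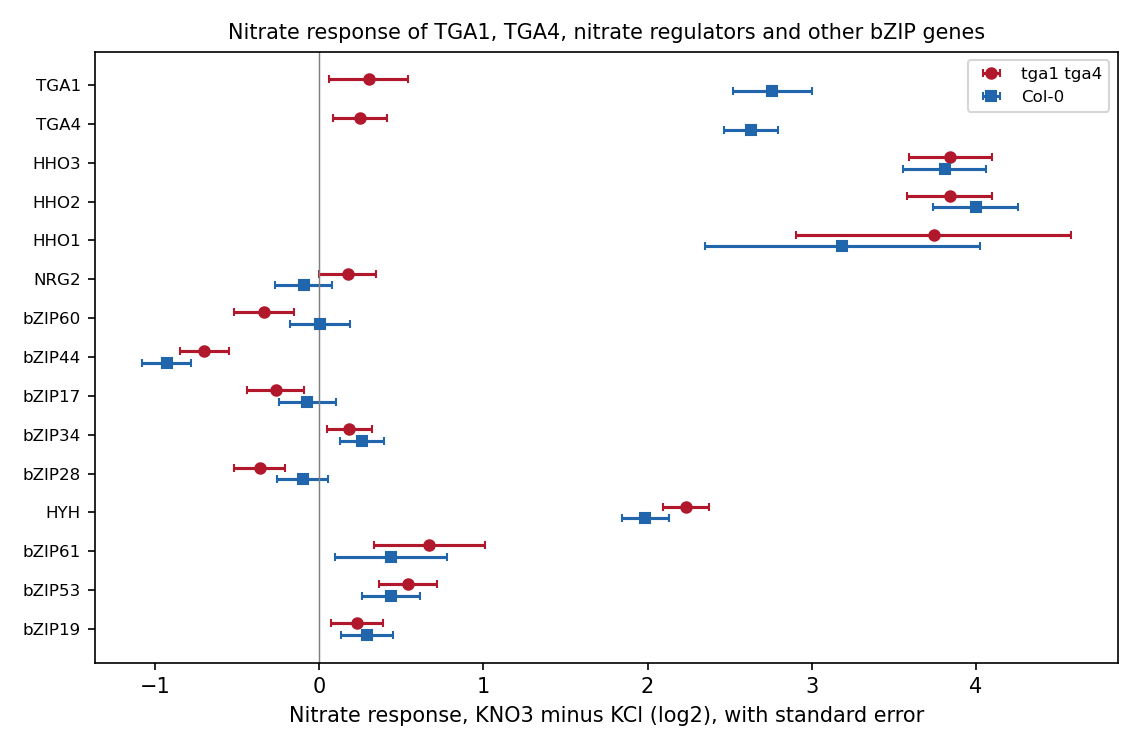
Nitrate response (KNO3 minus KCl, log2, x axis) in tga1 tga4 (red circles) and Col-0 (blue squares) for TGA1, TGA4, 4 nitrate regulators and 9 other bZIP genes (y axis), with bars of ± SE. For TGA1 and TGA4 the mutant value lies near 0 and far from the wild-type value, while HHO2, HHO3 and HYH lie at 2.23 to 3.84 in the mutant and 1.99 to 4.0 in wild type.

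The known partners and processes around TGA factors were measured only in part. CC-type glutaredoxins bind TGA factors, and of 16 measured 1 rose with nitrate in each genotype, AT3G62930, by 1.29 ± 0.21 in the mutant and 1.1 ± 0.21 in wild type (log2, SE). Of all probe sets, 3.17% were called higher in the mutant and 3.32% in wild type, so 1 of 16 does not set the list apart. Its level, 1.83 in mutant and 1.57 in wild-type KNO3 roots, lay below the sample medians, and neither rise passed with values floored there (adjusted p = 0.713 in the mutant and 0.397 in wild type). The median nitrate response of the 16 was 0.07 in the mutant and 0.14 in wild type. For a genotype difference or the interaction 0 passed (limma; 0 at an unadjusted p under 0.05), where at most 0.022% of all probe sets did. GRXS11 (AT1G06830) had the widest wild-type response of the list, with 1.48 ± 0.93 in the mutant and 1.28 ± 0.93 in wild type (log2, SE), and passed in neither (limma adjusted p = 0.533 in the mutant and 0.586 in wild type). Of 9 NPR and NIMIN genes 1 was measured, NPR2 (AT4G26120), a paralog of NPR1, with a nitrate response of -0.24 in the mutant and -0.15 in wild type (limma; not called). Of 12 genes of nitrate uptake and reduction 1 was measured, the high-affinity transporter gene NRT2.5, with a nitrate response of -1.20 in the mutant and -0.59 in wild type (limma; not called). Of 10 defence genes linked to TGA factors, 0 have a single-gene entry and none is analysed here.

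The labelled tissue was checked with the few markers that have an entry. Of 15 root markers 3 were measured, and of 12 shoot markers 2, too few for more than a description, and levels of different probe sets are not compared. The root gene PYK10, a beta-glucosidase of roots, had group means of 9.34 to 9.92, where the sample medians were 2.21 to 2.41. The group means of the photosystem antenna gene LHCB4.1 were 2.47 to 3.30, and those of the guard cell factor FAMA were 0.75 to 0.78. The root hair expansins EXPA7 and EXPA18 rose with nitrate in wild type, by 1.69 and 2.23, and had changes of 0.54 and 0.73 in the mutant that did not pass. PYK10 had changes of -0.59 in wild type and -0.46 in the mutant, which did not pass. The share of all probe sets called higher was 3.32% in wild type and 3.17% in the mutant. Under KCl the genotype differences of EXPA7 and EXPA18 were 1.07 and 1.23 and did not pass (limma, both at an unadjusted p under 0.05). Their SDs under KCl were 0.79 and 0.90 in the mutant, against 0.08 and 0.20 in wild type. Of the 3 root markers, 0 passed for the interaction, where 0.0044% of all probe sets did, and 2 were at an unadjusted p under 0.05. The part of root hair transcripts in the TGA1 and TGA4 values was not tested.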

How the data were processed

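Per the labels' protocols, TriZol total RNA was labelled with a 3′ IVT kit for Affymetrix arrays. The deposited table holds 1 normalized log2 value per probe set and sample. How the authors corrected, normalized and summarised the signals is not given in the sources used here. Base 2 was checked on the hybridisation controls, whose slope on log2 nominal concentration was 0.902 to 1.04. On arrays the number of samples, 3 per group, limits the precision, and the median SE of a difference was 0.164. After leaving out 64 of 22810 probe sets as controls, limma 3.58.1 (R 4.3.3) gave 1 mean for each group from the 12 samples, with two-sided moderated tests. Benjamini-Hochberg adjustment covered 22746 probe sets, with calls at an adjusted p of 0.05. The script was tested on simulated data.

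The gene table pairs 13513 of the 22746 with 1 gene and 503 with several, and 8730 have no entry. Where a gene had more than 1 probe set, the brightest was taken. The members were selected by identifier. That choice, the gene lists and the tests were made with earlier results of these data known. The text names both members, the 5 nearest and 3 most opposed single-gene probe sets over 12 samples and the 5 nearest over wild-type samples (among those brighter than the median), and from each list up to 3 genes per direction that passed or, where fewer than 2 did, those with the widest wild-type response. A few others were named after their values were seen: the gene NRG2, the tissue markers and probe sets called between genotypes.

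Within a salt, mutant and wild-type samples of one number shared their deviations (correlations of 0.276 to 0.726). These numbers were therefore taken as pairs in the salt and replicate blocks and in an exact test. The main fit has no pairing, and limma results are from it unless an alternative is named. Between salts within a genotype the correlations were -0.136 to 0.229, and the numbers were not taken as pairs. Alternatives varied the variance prior, sample weights, scaling, a filter on dim probe sets, floors, the samples fitted, replicate blocks and the omission of each sample.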

Additional observations from a re-analysis of the deposited data

Results flagged for a closer look

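The nitrate response of TGA4 differed between the genotypes by an interaction test, at -2.38 for the mutant minus wild type on the log2 scale (limma adjusted p = 0.00731). The response was 0.25 in the mutant and 2.63 in wild type. All 6 mutant values, 0.43 to 1.05, were under the median of their sample. With this low signal under both salts, the interaction is near the wild-type rise with its sign changed. TGA1 had an interaction of similar size, -2.46, which missed the threshold (limma adjusted p = 0.145).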

How the results depend on the processing

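The wild-type nitrate rise of TGA1 and TGA4 and their decrease in the mutant kept their direction and their calls when each sample was left out, under an intensity trend, array weights, quantile or median scaling, a filter that kept 12027 probe sets, a floor at the highest trp control and every replicate block. Exceptions came from the other floors. The planned floor was the 95th percentile of the Bacillus controls, of which dap, lys, phe and thr proved to carry signal, with the floor at 4.67 to 7.28 against sample medians of 2.21 to 2.41, so it is not a background level and its values do not bear on how stable the differences are. With it, TGA1 had a wild-type nitrate response of 1.57 and TGA4 of 0.29, genotype differences of -1.91 and -0.49 under KNO3, -0.61 and -0.47 under KCl and -1.26 and -0.48 averaged, and TGA4 an interaction of -0.0150. None of these passed, and calls numbered 28 for the mutant and 20 for the wild-type nitrate response and 0 for each genotype difference and the interaction. Floored at the sample median, a choice made after seeing the data, TGA4 under KCl was at -0.36 with 2 calls, and AT3G62930 in wild type turned to -0.0562.

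The TGA1 interaction passed at -2.73 with that floor, at -2.44 with array weights and at -2.54 with median centring, with 2 calls in each. It stayed at -2.46 and passed with the replicate block (limma adjusted p = 0.0135), the salt and replicate block (0.00191) and the random block (0.0104), with 2 calls in each. With the salt and replicate block, 18 probe sets were called under KCl and 10 for the average, and the random block gave 8 for the average. The blocks changed no other call on TGA1 or TGA4. Array weights gave 1822 calls for the mutant nitrate response and 9 for the average, and a fit of the KCl samples alone gave 2.

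Leaving out 1 sample at a time gave 720 (without mutant KNO3 replicate 1) to 1221 calls for the mutant nitrate response, 815 (without wild-type KNO3 replicate 1) to 1326 for that of wild type and 2 to 18 under KCl. The 2 came without mutant KCl replicate 3 or wild-type KCl replicate 2, and the 18 without mutant KCl replicate 1. The interaction ran from -2.69 to -2.23 for TGA1 and from -2.51 to -2.27 for TGA4, with 0 to 2 calls. The cause of these shifts was not tested. Fitting 2 groups only was not run for the average and the interaction, nor the salt and replicate block for nitrate responses. Signal over background limits the mutant values, and the table gives no detection calls.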

Other observations

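Genes next to TGA1 and TGA4 in the annotation were looked up after the values had been seen, 3 protein-coding genes on each side of each gene, which makes 12. A single-gene probe set exists for 3 of them, AT5G65205 and AT5G65220 near TGA1 and AT5G10040 next to TGA4. For the genotype differences and the interaction, 0 of the 3 passed (limma; 0 at an unadjusted p under 0.05). At most 0.022% of all probe sets did, so a count of 0 does not set these genes apart. The mutant minus wild-type differences were -0.01 to 0.54 under KNO3 and -0.20 to -0.11 under KCl, against -5.98 and -3.52 for TGA1 and -4.43 and -2.05 for TGA4.

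The fourth probe set called under KCl has no entry in the gene table. Its mutant minus wild-type difference was -0.01 under KNO3, which did not pass, and -1.39 under KCl (log2; limma adjusted p = 0.0188). This KCl call ended without mutant KCl replicate 3 or wild-type KCl replicate 2 and in a fit of the KCl samples alone. The wild-type nitrate response of this probe set was -1.40 (limma adjusted p = 0.000312), where TGA1 and TGA4 rose.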
